A study of Caenorhabditis elegans with 15 samples.

Results

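The C. elegans introns described here have a pair of 5’ splice sites exactly 1 nt apart and an intron of at least 100 nt when the upstream site is used. There were 1339 such events with a PSI in all 15 libraries, of 15261 alternative 5’ events scored in all 15 (8.77%). A further 310 events of the same geometry lacked a score in at least 1 library and were left out. PSI is the percent of the transcripts of an event that used the downstream site, so a higher PSI means that splicing moved 1 nt into the intron. The libraries were made from poly(A) RNA of mixed-stage whole worms of 5 strains, with 3 libraries from separate RNA isolations for each strain. PRCC(null) carried prcc-1(gk5556), a deletion of the whole coding region, and PRCC(I371F) carried prcc-1(az122), made by CRISPR. KIN17(M107I) carried dxbp-1(az52) together with unc-73(az63), and KIN17(K23N) carried dxbp-1(az121) together with unc-73(e936az30). The smg-4 control had neither the suppressor alleles nor the unc-73 alleles. All 5 strains carried smg-4(az152), which disables nonsense-mediated decay, the pathway that removes transcripts with a premature stop codon.

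An intron is removed in 2 steps, and the first step cuts the RNA at the 5’ splice site. U1 snRNA pairs with the 5’ site first, and the U6 snRNA later takes its place as the spliceosome becomes active. Nearly all introns begin with GU. A shift by 1 nt changes the reading frame when both sites lie in coding sequence. Per the study, KIN17, the product of dxbp-1 in the worm, has been modelled in a complex that forms after this handover. PRCC has been named as a potential part of a still later complex, from mass spectrometry and protein interaction data. The plan of the study was to ask how these alleles change the choice between neighbouring 5’ sites.

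The first bases of an intron show what a 1 nt step means. Below are the intron starts, in genome letters, of 13 members that passed the size rule in PRCC(null), which is explained further on, and that the study’s supplementary table of affected 5’ sites names and spells out. They run from the highest to the lowest PSI in PRCC(null). The lower case g is the first base of the intron from the upstream site, and the capitals are the first 2 bases of the intron from the downstream site. Each is written 5’ to 3’ on the strand of the gene.
F18E9.3: gTTagggaaatgt
szy-2: gTTatttttttta
mrt-2: gTTttatcattga
orc-1: gTTaaggctaatt
dph-2: gTTagtttatatc
tbce-1: gTTaacagacatt
F44B9.5: gTTaggaactaca
C34C12.8: gTTagtgctaacc
snx-13: gTTtattataaat
ncx-1: gTTagtgaccccg
saeg-2: gTTagttcttttt
W08D2.1 or egl-20: gTTttaacatttt
C03H12.1: gTTtttaaatcaa
Every one of these introns started with GT from the upstream site and with TT from the downstream site. The same was true of all 31 members found in that table, of which 26 had A after the capitals and 5 had T. G followed that A in 15 of the 26. The table was drawn up by the study from these same libraries, so this is a description of its choice. Intron starts of the other members were not read here.

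The median intron was 414 nt long (quartiles 205.5 and 845, longest 9544 nt), against a median of 69 nt over all 15261 events. By the use of the sites in the control, 835 members had the downstream site under 5%, 63 had it between 5% and 95% and 441 had it over 95%. In 657 members the downstream site was at 0 in all 3 control libraries, and in 207 it was at 100%. Because the authors formed events from introns with at least 5 reads summed over all samples, mutants included, a member at 0 in the control exists only because reads came from another strain. Counts and medians toward a site that the control does not use are thus partly set by how events were formed, for members and for all other events. The 1339 members held 1328 pairs of sites, 11 pairs being counted in 2 events, and in 42 members the downstream site was also the upstream site of another member. The tables hold neither reads nor expression, so depth is unknown, no interval can be given for a single PSI, and the genotypes could not be checked.

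In every library of a PRCC strain the downstream sites were used more widely than in the control. The downstream site was at 0 in 10.5% to 11.3% of members in PRCC(null), 19.3% to 22.0% in PRCC(I371F), 40.4% to 43.6% in KIN17(M107I), 41.7% to 44.4% in KIN17(K23N) and 56.2% to 57.4% in the smg-4 control. No library of PRCC(null) overlapped one of PRCC(I371F), and none of either overlapped the other 3 strains, while the KIN17 strains overlapped each other. Over 5% were 773 to 779 members in PRCC(null), 634 to 682 in PRCC(I371F), 516 to 523 in KIN17(M107I), 519 to 528 in KIN17(K23N) and 498 to 500 in the control. How many events a library scored moved with this order. It was 19278 to 19366 alternative 5’ events in PRCC(null), 18987 to 19196 in PRCC(I371F), 18539 to 18726 in KIN17(M107I), 18385 to 18577 in KIN17(K23N) and 18300 to 18485 in the control, and its part in the shares at 0 was not tested.

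**Figure D1:**
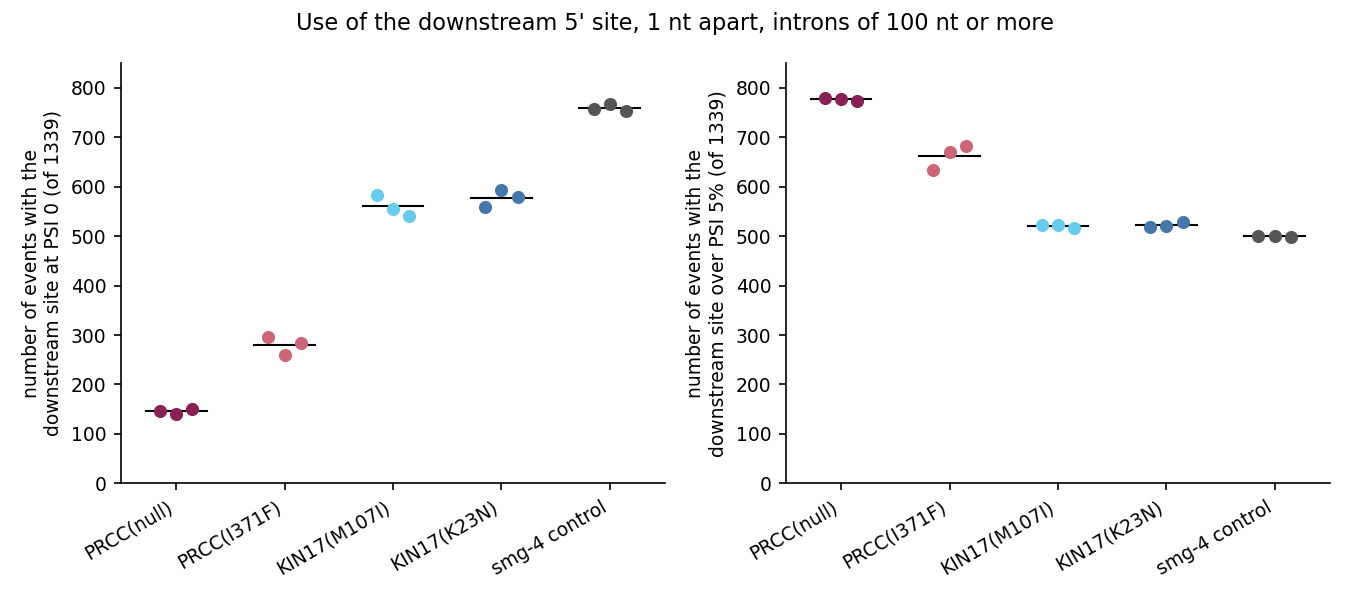
Number of the 1339 members (y axis) whose downstream site was at PSI 0 (left) or over PSI 5% (right), with 1 point for each of the 3 libraries of a strain (x axis) and a bar at their mean. The 3 PRCC(null) libraries sit between 141 and 151 members at 0 and the 3 control libraries between 752 and 768.

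Within the 835 members that hardly used the downstream site in the control, the shift in the PRCC strains was wide and mostly small. Their median PSI was 2.91% in PRCC(null), 1.49% in PRCC(I371F), 0.189% in KIN17(M107I), 0.111% in KIN17(K23N) and 0 in the control. The downstream site stayed at 0 in all 3 libraries in 22 of them in PRCC(null), 80 in PRCC(I371F), 347 in KIN17(M107I), 388 in KIN17(K23N) and 657 in the control. Mean PSI over 10% was reached by 149 members in PRCC(null), 71 in PRCC(I371F), 6 in KIN17(M107I), 13 in KIN17(K23N) and none in the control, where the class ends at 5%. A downstream site at 10% or more was thus the exception even in PRCC(null). Over all members the mean signed shift from the control, taken between means of 3 libraries, was 3.49 percentage points in PRCC(null). The mean absolute difference between single replicates was 2.77 to 3.20 points between PRCC(null) libraries and 1.04 to 1.56 points between control libraries. These are unlike measures, so their sizes cannot be set against each other.

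Large shifts were picked by the thresholds of the study’s rule. All 9 pairwise differences between a strain and the control had to exceed 15 percentage points in 1 direction, and their mean 20. The study also looked at the reads of each such event by eye, which could not be done here. In PRCC(null) 34 members passed toward the downstream site (2.54%), beside 1.17% of all alternative 5’ events. None passed toward the upstream site, beside 0.38% of all events. In PRCC(I371F) 14 members passed toward the downstream site (1.05%, beside 0.898% of all events) and 1 toward the upstream site (0.0747%, beside 0.413%). The share in PRCC(I371F) was near that of all events. Of the 34 members in PRCC(null), 23 were at 0 in every control library, and their median PSI was 32.4% in PRCC(null), 20.2% in PRCC(I371F), 4.03% in KIN17(M107I), 3.94% in KIN17(K23N) and 0 in the control. Their introns ran from 110 to 1182 nt with a median of 396 nt.

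To weigh each shift against the replicates, a limma model of the log2 odds of PSI took in all 15261 events. A member counted as called when its adjusted p (Benjamini-Hochberg) was under 0.05, whatever the size of the shift. In PRCC(null) limma called 515 members toward the downstream site (38.5%, beside 19.6% of all events) and 49 toward the upstream site (3.66%, beside 3.3%). In PRCC(I371F) it called 285 toward the downstream site (21.3%, beside 11.3%) and 26 toward the upstream site (1.94%, beside 2.41%). Most calls were of small shifts. The median size of the 515 calls was 4.41 points, 274 of them were under 5 points and 37 were over 20 points. In PRCC(I371F) the 285 calls had a median size of 4.11 points, with 164 under 5 points and 16 over 20. Over all members the median difference from the control was 0.98 points in PRCC(null) and 0.38 points in PRCC(I371F), beside 0.30 and 0.15 points over all events. The comparison of PRCC(null) with the control crosses 2 sets of library numbers, 24 to 29 and 1 to 9, which the labels do not explain, so strain and set cannot be told apart there.

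F18E9.3, at chrX:8586455-8587096 (ce10, plus strand, intron of 508 nt), had the highest PSI in PRCC(null) among the named genes that passed the rule. Its downstream site stood at 65.0%, 57.0% and 60.7% in PRCC(null), 44.4%, 32.9% and 37.8% in PRCC(I371F), 5.38%, 2.50% and 5.97% in KIN17(M107I), 0, 9.26% and 1.85% in KIN17(K23N) and 0 in all 3 control libraries. The mean was 60.9% ± 4.0 in PRCC(null) and 38.4% ± 5.8 in PRCC(I371F) (SD, n = 3 each), and limma gave a log2 odds difference from the control of 7.29 ± 0.68 (SE, adjusted p = 1.35e-05) in PRCC(null) and of 5.98 ± 0.68 (adjusted p = 0.000141) in PRCC(I371F). So in PRCC(null) the intron starting with TT was the more common form. The PRCC strains did not overlap each other at this gene, yet limma did not call their difference of 22.6 points (adjusted p = 0.335). With 3 libraries against 3, the exact two-sided permutation test gives 0.1 for any 2 strains that do not overlap, the smallest p it can give, so single members were judged by limma.

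In szy-2, mrt-2, orc-1 and rtel-1, set together here by their roles after their values were seen, every PRCC(null) library lay above every PRCC(I371F) library and these above the other 3 strains. The order of the PRCC strains was not particular to these genes. It held in 16 of the 19 members of the study’s table that passed the rule in PRCC(null). In szy-2, whose product is a homolog of protein phosphatase inhibitor-2, PSI was 41.5%, 43.4% and 46.2% in PRCC(null), 32.1%, 31.5% and 30.7% in PRCC(I371F), 8.33%, 8.80% and 8.04% in KIN17(M107I), 14.3%, 12.5% and 12% in KIN17(K23N) and 0.694%, 0.769% and 0.890% in the control. In this gene no 2 strains overlapped, and limma called all 4 strains against the control (adjusted p = 1.72e-07, 7.23e-07, 0.000631 and 0.000156 in the order of the values). In mrt-2, which encodes a DNA damage checkpoint protein of the RAD1 family, PSI was 40.4%, 44.3% and 32.9% in PRCC(null), 24.2%, 23.8% and 30.2% in PRCC(I371F), 9.20%, 10.7% and 14.9% in KIN17(M107I), 3.03%, 7.79% and 10% in KIN17(K23N) and 0 in every control library. It was also called in all 4 strains, with adjusted p = 1.40e-06 in PRCC(null), 1.08e-05 in PRCC(I371F), 0.000923 in KIN17(M107I) and 0.00536 in KIN17(K23N). The origin recognition subunit orc-1 had 36.4%, 40.7% and 37.0% in PRCC(null), 15.4%, 24.8% and 21.0% in PRCC(I371F) and 0, 1.83% and 0.483% in the control, and limma called both PRCC strains (adjusted p = 8.80e-06 and 0.000161) but not KIN17(M107I) or KIN17(K23N) (adjusted p = 0.246 and 0.252). In rtel-1, a DNA helicase gene, PSI was 40.0%, 37.0% and 24.2% in PRCC(null), 9.09%, 5.88% and 17.9% in PRCC(I371F) and 3.12%, 3.23% and 0 in the control. Here PRCC(null) was called (adjusted p = 0.000631) and PRCC(I371F), with adjusted p = 0.0521, was not, although its 3 libraries lay above those of the control.

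Among the other genes that passed in PRCC(null) were ones of the cytoskeleton, signalling, transport and protein modification. In tbce-1, a tubulin folding cofactor, PSI was 28.8%, 33.3% and 26.5% in PRCC(null), 16.1%, 18.7% and 29.7% in PRCC(I371F) and 0 in the control, so that the PRCC strains overlapped. In dph-2, a gene of diphthamide synthesis, with an intron of only 110 nt, PSI was 32.1%, 30.3% and 30.8% in PRCC(null), 15.9%, 18.1% and 18.1% in PRCC(I371F) and 1.28%, 0 and 3.81% in the control. An event that the table gives to both W08D2.1 and egl-20, a Wnt ligand gene, had no such order, with 15.8%, 19.6% and 30.2% in PRCC(null), 27.4%, 20.4% and 24.3% in PRCC(I371F) and 0 in the control. The PRCC strains overlapped there and limma did not call the difference between them (difference of -2.19 points, adjusted p = 0.947). The sodium/calcium exchanger gene ncx-1, spr-5, a histone demethylase gene, and saeg-2, C34C12.8, F44B9.5, B05E11.12, tli-1, tag-229, snx-13 and C03H12.1 also passed in PRCC(null), with mean PSI between 20.8% and 35.6% there.

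**Figure D2:**
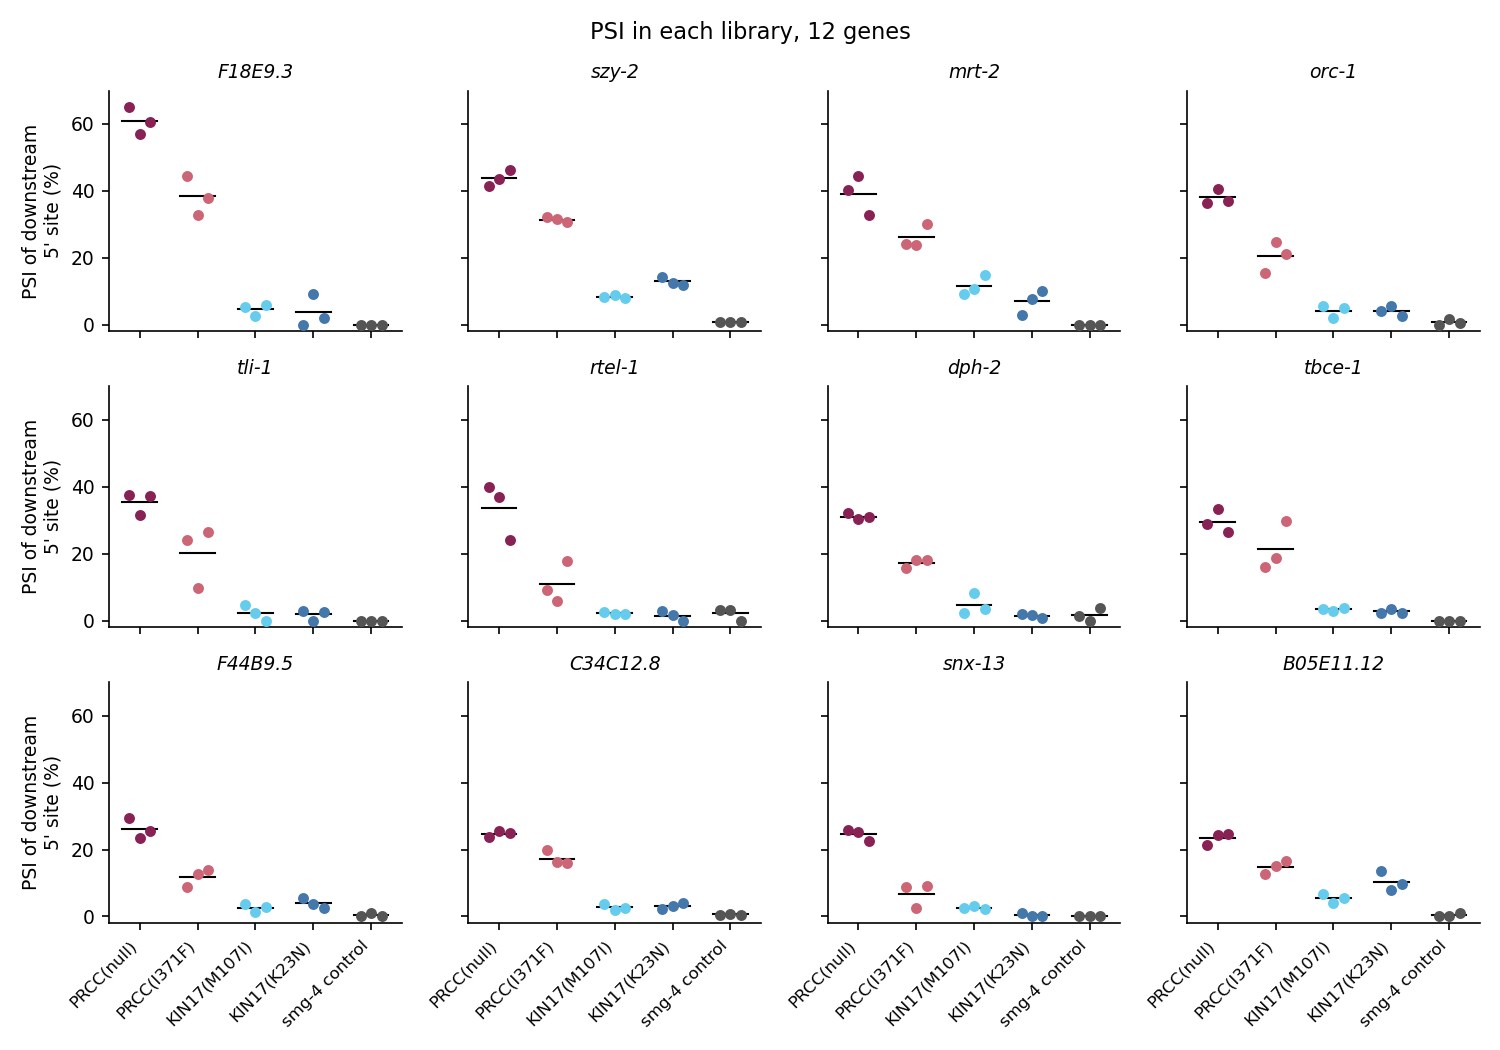
PSI of the downstream site (y axis, percent) in each library of the 5 strains (x axis) for 12 of the listed genes that passed the rule in PRCC(null), from the highest to the lowest mean PSI there, with a bar at the mean of 3 libraries. The mean of PRCC(null) is the highest in each panel, its libraries reach 65.0% in F18E9.3, and the control lies at or under 3.81% in every panel.

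Over the 31 members named in the study’s table, the median PSI was 22.4% in PRCC(null), 12% in PRCC(I371F), 2.54% in KIN17(M107I), 2.67% in KIN17(K23N) and 0 in the control. The means of PRCC(null) ran from 17.0% to 60.9% and those of PRCC(I371F) from 4.31% to 38.4%. limma called all 31 in PRCC(null), 29 in PRCC(I371F), 9 in KIN17(M107I) and 8 in KIN17(K23N), in each case toward the downstream site. These members were chosen by the study for their change in the same libraries, so the counts are a description. The 26 with A after the TT had a median of 22.7% in PRCC(null) and the 5 with T one of 21.9%. The other 15 members that passed the rule in PRCC(null) were not matched to that table by position. In it 1 line matched several members and was assigned to none. Whether such members were set aside when the study looked at the reads is not known.

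Several of these unmatched members shifted as far as the named genes. The event at chrIV:13244096-13244368 (intron of 137 nt) had PSI 82.1%, 72.4% and 86.5% in PRCC(null), 61.5%, 56.5% and 61.5% in PRCC(I371F), 64.9%, 49.3% and 59.5% in KIN17(M107I), 0, 55.7% and 0 in KIN17(K23N) and 0, 0 and 43.8% in the control. A single control library thus stood apart, and the call (adjusted p = 0.025) was lost without PRCC(null) library 27 (0.0596) or 29 (0.0698) and without control library 1 (0.099) or 2 (0.101). At chrI:79327-80369 PSI was 66.7%, 50% and 42.9% in PRCC(null), 66.7%, 40.0% and 33.3% in PRCC(I371F) and 0 in the control (adjusted p = 0.00554 and 0.0126), with 1 KIN17(K23N) library at 55.6%. At chrX:4186339-4186714 PSI was 36.8%, 26.3% and 66.7% in PRCC(null), 50%, 20.0% and 14.3% in PRCC(I371F) and 0 in the control. Replicates spread widely at the last pair of events, with SDs of 12 and 21 points in PRCC(null), whereas the SD was 7.2 at the first event and 0.92 to 8.4 in the 8 genes given by library above. The events at chrX:5605423-5606000, chrIV:13163148-13163669, chrI:4657362-4658005, chrIII:10081673-10081935 and chrIII:12392904-12393259 had mean PSI of 42.4%, 41.2%, 41.9%, 44.4% and 38.0% in PRCC(null) and 0 in the control, with adjusted p between 8.80e-06 and 0.00826. Their SDs in PRCC(null) were 7.9, 15.1, 7.4, 23.3 and 10.4 points in the same order, so some of these spread widely too.

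In some members the mean was highest in PRCC(I371F). At chrV:1295351-1297585, an intron of 2103 nt, PSI was 0 in all 3 PRCC(null) libraries, 25%, 42.9% and 22.2% in PRCC(I371F), 16.7%, 0 and 0 in KIN17(M107I) and 0 in KIN17(K23N) and the control. limma called it in PRCC(I371F) against the control (adjusted p = 0.00187) and in PRCC(null) against PRCC(I371F) (difference of -30.0 points, adjusted p = 0.00281). At chrIV:3468337-3468597 PSI was 18.8%, 7.69% and 7.69% in PRCC(null), 33.3%, 16.7% and 20.0% in PRCC(I371F) and 0 in the 9 other libraries. Those PRCC strains overlapped, and limma did not call their difference (adjusted p = 0.0936). At chrII:15132020-15133097 PSI was 40.0%, 18.2% and 18.8% in PRCC(null), 60.0%, 52.9% and 25% in PRCC(I371F) and 0 in the control. The 1 member that passed toward the upstream site, at chrII:1481530-1484158, had PSI 36.4%, 50% and 16.7% in PRCC(null), 0, 0 and 16.7% in PRCC(I371F) and 37.5%, 33.3% and 37.5% in the control, and its call in PRCC(I371F) (adjusted p = 0.0125) was lost without PRCC(I371F) library 8 (0.0515). Another member with the same span has its sites 1 nt away, so reads at 3 neighbouring sites feed both. In PRCC(I371F) that other member went the other way, at 100%, 100% and 50% against 45.5%, 20.0% and 57.1% in the control. limma did not call this difference (adjusted p = 0.0929).

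In the direct comparison of the PRCC strains most called members used the downstream site more in the deletion than in the missense allele. limma called 136 members higher in PRCC(null) than in PRCC(I371F) (10.2%, beside 6.66% of all events) and 13 lower (0.971%, beside 1.42%). The median size of the 136 calls was 2.96 points, and 2 of them were over 20 points. Of the 835 members with the downstream site under 5% in the control, 657 had a higher mean in PRCC(null) than in PRCC(I371F) and 176 a lower one, with 134 and 4 calls. Among those over 95% in the control, all 9 calls were toward the upstream site in PRCC(null). Most calls in both directions were thus toward the site that the control used little.

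**Figure D3:**
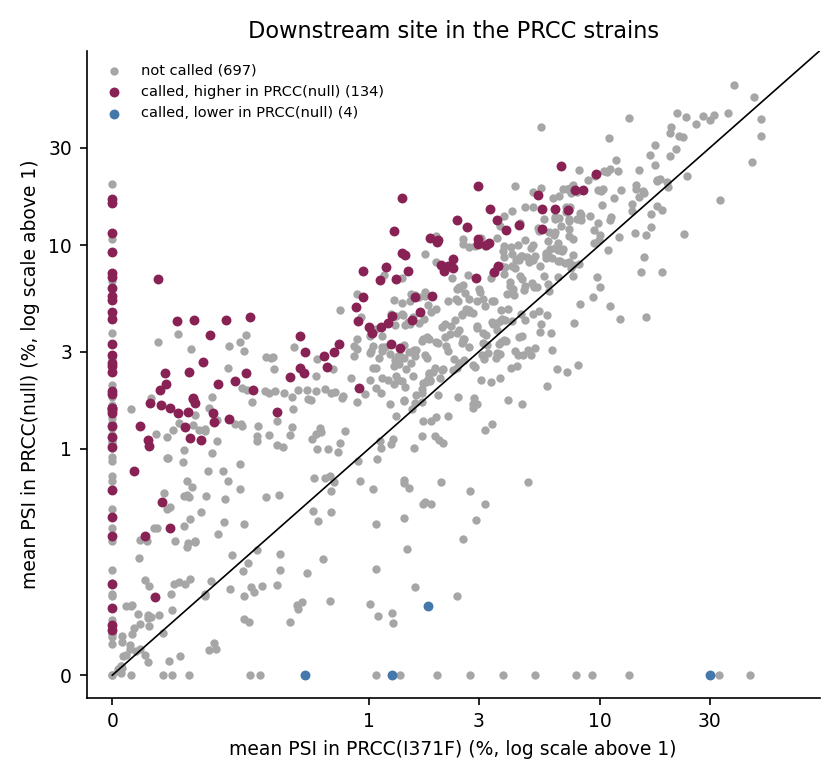
Mean PSI of the downstream site in PRCC(null) (y axis) against PRCC(I371F) (x axis), in percent on scales that are logarithmic above 1%, for the 835 members with the downstream site under 5% in the control, 3 libraries per mean. The line marks equal values, and 134 coloured points above it and 4 below it are called by limma.

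One of these members was in snx-13, a sorting nexin gene, at chrIV:17082738-17083676 with an intron of 804 nt. Its PSI was 25.8%, 25.2% and 22.7% in PRCC(null), 8.89%, 2.59% and 8.97% in PRCC(I371F), 2.50%, 3.12% and 2.14% in KIN17(M107I), 1.08%, 0 and 0 in KIN17(K23N) and 0 in the control. PRCC(null) exceeded PRCC(I371F) by 17.7 points, with a log2 odds difference of 2.15 ± 0.44 (SE, adjusted p = 0.00854), and the call held without any 1 library. In tag-229 PSI was 22.4%, 21.8% and 23% in PRCC(null), 11%, 9.17% and 8.91% in PRCC(I371F) and 0 in the control (adjusted p = 0.0253 between the PRCC strains). At chrI:12954514-12954913 PSI was 42.9%, 57.1% and 22.2% in PRCC(null), 7.69%, 0 and 0 in PRCC(I371F), and 11.1%, 28.6% and 23.1% in the control, so that the control lay between the PRCC strains. Its call (adjusted p = 0.028) was lost without PRCC(null) library 27 (0.0697) or 28 (0.0887) or PRCC(I371F) library 8 (0.0924) or 9 (0.095). At chrV:1281321-1281573 PSI was 16.7%, 12.5% and 21.4% in PRCC(null) and 0 in PRCC(I371F) and the control, and at chrI:4953853-4954123 it was 19.2%, 24% and 15.5% in PRCC(null), 4.31%, 4.65% and 0 in PRCC(I371F) and 3.12%, 0 and 0 in the control. The first of these calls (adjusted p = 0.0259) was lost without PRCC(null) library 27 (0.0604) or 29 (0.0753) or PRCC(I371F) library 7 (0.0661), 8 (0.0634) or 9 (0.0655), and the second (adjusted p = 0.0195) without PRCC(null) library 28 (0.059). The chrII:1481530-1484158 member above also differed (28.8 points, adjusted p = 0.0257), and lost the call without PRCC(null) library 27 (0.0664) or 28 (0.0854) or PRCC(I371F) library 7 (0.0951) or 8 (0.0911).

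Split by intron length, the PRCC strains had like shares of calls under 100 nt and unlike shares in each of the 4 longer classes. Events with the downstream site under 5% in the control were split by length, and introns under 100 nt with sites 1 nt apart were set beside the members. Of 1102 events with introns under 100 nt, limma called 41.5% toward the downstream site in PRCC(null) and 41.2% in PRCC(I371F). Of the 186 members from 100 to under 200 nt it called 59.7% in PRCC(null) and 33.9% in PRCC(I371F). From 200 to under 500 nt (282 members) the shares were 60.6% in PRCC(null) and 31.6% in PRCC(I371F), from 500 to under 1000 nt (208 members) 67.8% in PRCC(null) and 40.4% in PRCC(I371F), and from 1000 nt (159 members) 55.3% in PRCC(null) and 30.8% in PRCC(I371F). Beyond 100 nt neither strain thus had a steady trend with length. Median PSI followed the same pattern, at 1.43% in PRCC(null) and 1.48% in PRCC(I371F) under 100 nt, and at 2.58% in PRCC(null) and 1.20% in PRCC(I371F) from 100 to under 200 nt. Close to 100 nt the strains had like counts on both sides. Of 19 such events from 90 to under 100 nt, 10 were called in PRCC(null) and 8 in PRCC(I371F), and of 23 from 100 to under 110 nt, 14 were called in PRCC(null) and 11 in PRCC(I371F).

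**Figure D4:**
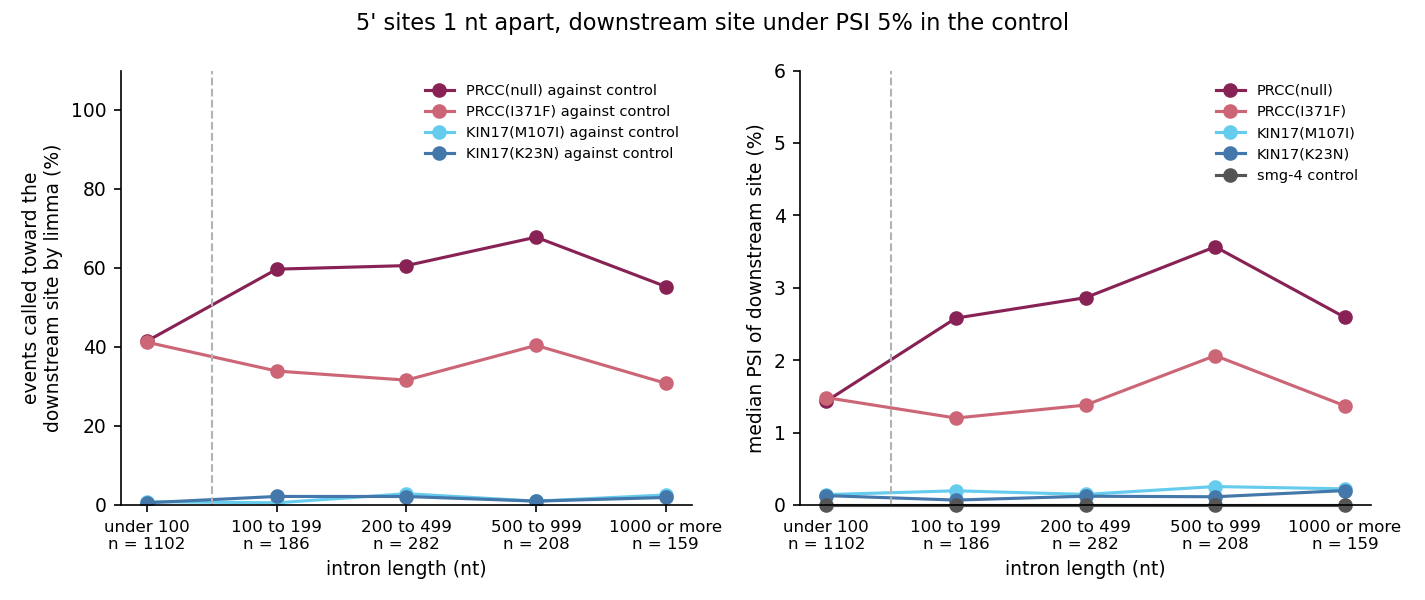
Percent of events called by limma toward the downstream site against the control (left) and median PSI of the downstream site (right) by intron length (x axis, nt), for events with sites 1 nt apart and the downstream site under 5% in the control, with 1 line per strain. The PRCC strains meet under 100 nt, at 41.5% and 41.2% called, and lie apart in every class of the members to the right of the dashed line.

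The direct test between the PRCC strains gave the same picture. Under 100 nt it called 43 of 1102 events higher in PRCC(null) and 50 lower, whereas among the members it called 31 higher and 1 lower from 100 nt, 47 and 2 from 200 nt, 35 and 0 from 500 nt and 21 and 1 from 1000 nt. Each PRCC strain was also compared with the KIN17 strain of its own set of library numbers. The reference strain thus differed between these comparisons, and the events were still chosen by their use in the control, which is numbered within 1 to 9. Whether the set of library numbers plays a part in the contrast by length was not tested. Against KIN17(M107I), also numbered 24 to 29, PRCC(null) had 34.2% of the events under 100 nt and 51.6%, 52.5%, 58.2% and 47.8% of the 4 longer classes called toward the downstream site. Against KIN17(K23N), also numbered 1 to 9, PRCC(I371F) had 34.8% under 100 nt and 24.2%, 23%, 32.2% and 20.8% in the longer classes. Over all members these comparisons called 444 downstream (33.2%, beside 16.3% of all events) and 33 upstream (2.46%, beside 2.33%) in PRCC(null) against KIN17(M107I), and 211 downstream (15.8%, beside 8.02%) and 12 upstream (0.896%, beside 1.68%) in PRCC(I371F) against KIN17(K23N). No test was made of the difference between length classes.

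In the KIN17 strains few members differed from the control. Both strains carry an unc-73 allele that the control lacks, so it cannot be told apart from the dxbp-1 allele. KIN17(M107I) against the control also crosses the sets of library numbers. limma called 15 members toward the downstream site in KIN17(M107I) (1.12%, beside 0.524% of all events) and 2 toward the upstream site (0.149%, beside 0.17%), and in KIN17(K23N) also 15 (1.12%, beside 0.472%) and 2 (0.149%, beside 0.144%). The median size of the downstream calls was 3.58 points in KIN17(M107I) and 4.63 points in KIN17(K23N). Besides szy-2, mrt-2 and tbce-1, B05E11.12 was among them, at 6.74%, 3.96% and 5.59% in KIN17(M107I), 13.6%, 7.81% and 9.70% in KIN17(K23N) and 0, 0 and 1.04% in the control (adjusted p = 0.0115 and 0.00141). The 17 calls in KIN17(M107I) fell to 10 without its library 25, to 10 without control library 1 and to 11 without control library 3, and the 17 in KIN17(K23N) to 11 without control library 1. With an offset of 0.05 in the log2 odds 3 calls were left in KIN17(M107I) and 4 in KIN17(K23N), and with PSI not transformed 0 were left in KIN17(M107I) and 2 in KIN17(K23N). Between the KIN17 strains limma called no member higher (beside 0.00655% of all events) and 1 lower in KIN17(M107I) (0.0747%, beside 0.00655%). This was the event at chrII:9097756-9098039, with 0.794%, 0.877% and 0.725% in KIN17(M107I), 6.57%, 4.72% and 6.93% in KIN17(K23N) and 0 in the control (adjusted p = 0.0478), and the call was lost without KIN17(M107I) library 24, 25 or 26, KIN17(K23N) library 4 or PRCC(null) library 27 (adjusted p between 0.0542 and 0.0851). Before adjustment 54 of the 1339 members had a limma p under 0.05 in this comparison, beside 792 of all 15261 events.

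By the size rule 1 member moved each way in each KIN17 strain. For both strains that is 0.0747% of members, beside 0.183% downstream and 0.19% upstream of all events in KIN17(M107I) and 0.183% and 0.144% in KIN17(K23N). At chrV:11978776-11979529 PSI was 87.5%, 77.8% and 85.7% in KIN17(M107I), against 56.2%, 62.5% and 60.0% in the control, and at chrI:14760039-14760431 it was 75.0%, 80.0% and 20.0% in KIN17(M107I), against 100% in all control libraries. At chrI:13830333-13830656 PSI was 16.7%, 71.4% and 80.0% in KIN17(K23N), against 0 in all control libraries, and at chrII:1481530-1484158, in the second event of that span, it was 0 in KIN17(K23N), against 45.5%, 20.0% and 57.1% in the control. None of these 4 was called by limma (adjusted p of 0.287, 0.542, 0.537 and 0.262). Leaving out 1 library leaves 6 pairwise differences to pass in place of 9, which eases the rule. The count of members that passed in KIN17(M107I) was then 6 without its library 24, 7 without its library 25, 10 without control library 2 and 5 without control library 3, and in KIN17(K23N) it was 6 without its library 5, 5 without its library 6, 4 without control library 1 and 5 without control library 2.

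Of the 441 members that mainly used the downstream site in the control, limma called 49 toward the upstream site and 2 toward the downstream site in PRCC(null). In these 441 members the mean use of the upstream site was 0.857% in PRCC(null), 0.993% in PRCC(I371F), 0.545% in KIN17(M107I), 0.587% in KIN17(K23N) and 0.263% in the control. The 49 upstream calls, which were all that PRCC(null) had among the members, had a median size of 1.63 points and none was over 10. Among those of the 441 that the direct test between the PRCC strains called toward the upstream site, the largest differences were at chrIV:10407422-10408185, with PSI 97.9%, 97.6% and 96.9% in PRCC(null) and 100% in PRCC(I371F) and the control (adjusted p = 0.00349), and at chrI:6112729-6113016, with 99.1%, 98.2% and 96.8% in PRCC(null), 100%, 99.6% and 100% in PRCC(I371F) and 100% in the control. The second of these calls (adjusted p = 0.0147) was lost without PRCC(I371F) library 7 (0.0531) or 9 (0.0521). The 63 members that used both sites in the control gave 2 downstream calls in PRCC(null), 2 upstream calls in PRCC(I371F) and none in a KIN17 strain. The 3 members closest to even use, at chrI:13648968-13652985, chrIII:2115915-2116301 and chrIII:834100-834364, had control values of 38.9% to 55.6%, 0 to 100% and 0 to 100%, and limma called no strain against the control in any of them.

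By chromosome the share of members called toward the downstream site varied little. In PRCC(null) it lay between 36.3% on chromosome V (66 of 182) and 42.9% on chromosome IV (102 of 238), and in PRCC(I371F) between 17.0% on chromosome X (19 of 112) and 23.1% on chromosome IV (55 of 238). Of the 34 members that passed the rule in PRCC(null), 10 lay on chromosome III, 9 on chromosome I, 7 on chromosome IV, 4 on chromosome X and 2 each on chromosomes II and V.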

How the data were processed

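Poly(A) RNA of 15 libraries was sequenced as 75 nt directional paired reads. Per the labels and methods, the authors used cutadapt, Bowtie2, STAR and SAMtools on build ce10 (WS220), with a STAR changed to treat UU/AG introns like GU/AG introns, and built alternative 5’ events from introns that had 5 or more reads when all samples were summed. The deposited score of each form is its PSI times 1000 with no read depth. Scores of 1 and 999 were read as 0 and 1000, which is an assumption. The other deposited tables hold no alternative 5’ events and were not used. Samples were grouped by genotype in the labels. limma 3.58.1 (R 4.3.3, trend and robust options) took log2((PSI + 0.01)/(1 − PSI + 0.01)) as the response in the 15 libraries together. Adjustment was by Benjamini-Hochberg over 15261 events. A run on simulated data used much larger shifts than most called here and an assumed depth, so it says nothing about calls of small shifts. Single members were also compared by exact permutation tests (scipy 1.17.1).

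The members, lists and thresholds were chosen with earlier results of these data known. Named were, for each PRCC strain, up to 12 members with the largest difference from the control among those passing the rule and up to 5 of these toward the upstream site, all passing members of the KIN17 strains, up to 5 members called in each direction between the PRCC strains and up to 3 between the KIN17 strains, and the 3 nearest to even use in the control. Listed genes outside this rule were named after their values were seen. Gene names and intron starts were taken from the study’s supplementary table by position (within 3 nt). Alternatives were pairwise limits of 10 or 20 points, no limit on the mean, each pair of sites once, introns of 200 nt or more, only events not always at 0 or 100%, an offset of 0.05, PSI not transformed, a mean difference over 20 points, limma without trend and robust options, and leaving out each library. The values of 1 listed gene are not reported here.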

Additional observations from a re-analysis of the deposited data

Results flagged for a closer look

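The PRCC strains differed from each other in 149 members by the direct limma contrast, of which 136 were higher in PRCC(null). Among the named members, PRCC(null) minus PRCC(I371F) was 38.2 points at chrI:12954514-12954913, 28.8 points at chrII:1481530-1484158, 17.7 points in snx-13, 16.9 points at chrV:1281321-1281573, 16.6 points at chrI:4953853-4954123 and 12.7 points in tag-229. It was -30.0 points at chrV:1295351-1297585, -2.54 points at chrIV:10407422-10408185, -1.82 points at chrI:6112729-6113016, -1.73 points at chrIV:8191053-8191424 and -1.62 points at chrI:6927101-6927516. This comparison crosses the library numbers 24 to 29 and 1 to 9, and strain and set cannot be told apart in it. KIN17(M107I) against KIN17(K23N) crosses the same numbers and gave 1 call among the members, but these strains also differ in their dxbp-1 and unc-73 alleles. The part of the set of library numbers was not tested in either comparison.

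Among the 310 events of the same geometry that were not scored in every library, 51 had a PSI in all PRCC(null) and control libraries and 4 of these passed the rule, 3 toward the downstream and 1 toward the upstream site. In PRCC(I371F) 46 could be compared with the control and 4 passed, all toward the downstream site. The share that passed among all incompletely scored alternative 5’ events was not computed. These counts thus have no background and cannot be read as high or low. Groups of 3 libraries are too small for a test of single outlying libraries.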

How the results depend on the processing

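The counts in the PRCC strains kept to within 1.5 times under most alternatives. Under a smallest pairwise difference of 20 points the rule passed 9 members in PRCC(I371F) and 0 in either KIN17 strain, and under 10 points 6 in KIN17(K23N) and 5 in KIN17(M107I). With introns of 200 nt or more it passed 1 in KIN17(K23N). A mean difference over 20 points left of the limma calls 37 in PRCC(null) and 18 in PRCC(I371F) against the control, 3 between the PRCC strains, 26 in PRCC(null) against KIN17(M107I), 8 in PRCC(I371F) against KIN17(K23N) and 0 in each KIN17 comparison with the control or between them. An offset of 0.05 left 4 calls in KIN17(K23N) and 3 in KIN17(M107I). PSI without transformation left 2 in KIN17(K23N) and 0 in KIN17(M107I), gave 0 between the KIN17 strains and raised the PRCC strain comparison to 249 calls, of which 143 were shared with the 149. Without trend and robust options KIN17(K23N) had 29 calls and the KIN17 strains differed in 4. The only call between the KIN17 strains was in an intron of 150 nt, so that 200 nt or more left 0.

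Leaving out 1 library gave 486 to 577 calls in PRCC(null), 253 to 348 in PRCC(I371F), 10 to 19 in KIN17(M107I) and 11 to 20 in KIN17(K23N) against the control, 127 to 158 between the PRCC strains, 0 to 3 between the KIN17 strains, 412 to 482 in PRCC(null) against KIN17(M107I) and 167 to 250 in PRCC(I371F) against KIN17(K23N). The rule, then eased to 6 pairwise differences in place of 9, passed 35 to 43 members in PRCC(null), 16 to 22 in PRCC(I371F), 2 to 10 in KIN17(M107I) and 3 to 6 in KIN17(K23N). Of 50 called differences of named members, 41 stayed called under all 19 alternatives. PRCC(null) against the control at chrIII:834100-834364 was 6.67 points and not called, and it ran from -20.0 to 36.7 points when 1 library was left out. Depth is not in the tables, so a PSI of 0 may reflect few reads. No paired analysis was possible because the strains share no replicate numbers.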
